A study of Mus musculus with 4 samples.

Results

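The tight junction genes of mouse small intestine described here are the claudin genes Cldn2, Cldn3, Cldn4, Cldn7, Cldn15 and Cldn23, the occludin gene Ocln and the scaffold genes Tjp1 and Tjp3. They were given as a list of 9 symbols, and every probe set whose platform annotation names exactly 1 of them was taken, which did not use any measured value. This gave 13 of 22626 probe sets that were not controls and 9 of 12393 genes. Cldn3 had 4 probe sets, Cldn2 had 2 and the other members had 1 each. All 13 were bright enough to be tested.

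The study measured total RNA of small intestine, with no layer named, from 1-month-old mice on Affymetrix arrays, 4 arrays of biotin-labelled RNA with 1 animal each. The null group held 1 male and 1 female, both with a floxed HNF4 allele over a minus allele and with villin-Cre. The control group held 1 male that had the floxed and the minus allele but no Cre, and 1 female that had the floxed allele over wild type together with villin-Cre. Every animal thus carried at least 1 loxP allele, and in the controls sex cannot be told apart from Cre and from the minus allele. Villin-Cre acts in intestinal epithelium, so the other cells of the wall keep the floxed allele. Neither the stretch of intestine used nor the floxed gene (Hnf4a or its paralogue Hnf4g) is named in the labels. The animals' numbers in the labels are consecutive within each sex.

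Tight junctions are belts near the apex of epithelial cells that limit what passes between neighbouring cells. Claudins are small membrane proteins whose extracellular loops meet those of the next cell. Some of them form paracellular pores for ions and others seal the gap. Occludin is a further membrane protein of the belt, and the zonula occludens proteins, such as those encoded by Tjp1 and Tjp3, tie claudins to the actin cytoskeleton. In gut epithelium the set of claudins differs between crypt and villus and between stretches of the intestine.

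The members' promoters were searched for a known HNF4 recognition sequence, since HNF4 is a DNA-binding nuclear receptor. RefSeq promoter windows of build GRCm38.p6, running from 250 bases before to 50 after a start site, were matched for 8 of the 9 genes, with 11 windows in all. The sequence CAAAGTCCA was in none of the 11 and in 0.475% of all 32851 windows, on either strand. Its looser form CAAAGNNCA, which includes it, was in 1 of the 11 and in 6.36% of all windows. That 1 match was CAAAGTTCA in the upstream of the 2 Tjp3 windows, beginning 178 bases before the start site on the gene's own strand. A match is a description of the letters and not of binding. The Tjp3 window is shown with the match in capitals, beside the windows of Cldn2 and Cldn15, the members with the highest and the lowest null minus control difference. Each is written 5′ to 3′ on the gene's strand, at chr10:81291532-81291831 (minus strand) for Tjp3, chrX:139800558-139800857 (plus strand) for Cldn2 and chr5:136967619-136967918 (plus strand) for Cldn15.
Tjp3: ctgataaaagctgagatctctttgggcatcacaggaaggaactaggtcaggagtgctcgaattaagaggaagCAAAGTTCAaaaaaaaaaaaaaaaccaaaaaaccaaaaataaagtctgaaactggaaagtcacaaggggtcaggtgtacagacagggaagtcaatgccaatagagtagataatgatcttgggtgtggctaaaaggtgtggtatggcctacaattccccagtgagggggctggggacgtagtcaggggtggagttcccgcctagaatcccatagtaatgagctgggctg
Cldn2: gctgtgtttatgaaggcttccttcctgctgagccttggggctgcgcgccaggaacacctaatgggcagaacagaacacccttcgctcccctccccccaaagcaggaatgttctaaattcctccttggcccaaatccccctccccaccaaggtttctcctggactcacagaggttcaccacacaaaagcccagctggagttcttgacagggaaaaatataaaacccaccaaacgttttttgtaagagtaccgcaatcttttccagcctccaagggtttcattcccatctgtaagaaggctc
Cldn15: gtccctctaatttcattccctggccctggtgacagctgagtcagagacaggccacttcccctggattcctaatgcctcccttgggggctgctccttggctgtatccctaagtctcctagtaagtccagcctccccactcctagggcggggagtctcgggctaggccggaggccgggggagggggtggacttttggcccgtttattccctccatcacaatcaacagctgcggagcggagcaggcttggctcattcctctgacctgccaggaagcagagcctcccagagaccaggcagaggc

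The deposited table holds linear intensities, 1 per probe set and array, and array medians ran from 43.2 to 53.3. After normalization the arrays correlated at 0.921 to 0.965 (Pearson, across probe sets), and the 3 lowest values, 0.921, 0.939 and 0.946, were those of the null male. The epithelial adhesion gene Epcam, which marks the tissue, read 2638 and 2286 in the null animals and 2774 and 2705 in the controls. The 4 Hnf4a probe sets differed by 0.08 to 0.32 on the log2 scale (null minus control), and the 2 Hnf4g probe sets by 0.12 and 0.16. No group mean was lower in null animals, although the null female lay below the control female on 3 of the 4 Hnf4a probe sets, and the signal does not check the null label. Where the deleted part lies relative to these probe sets is not given in the sources used here. No detection calls were used, and a dim level was therefore taken from Y-linked genes in females and Xist in males, which gave 18 values from −2.23 to 34.4. Of the 52 member values, 51 lay above that range, from 43.3 to 2155, and 1 lay inside it.

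No tight junction member differed between null and control intestine past the threshold. Intensities were quantile normalized and taken to log2 after adding 16, and all probe sets tested were fitted together in limma, with Benjamini-Hochberg adjustment and a threshold of 0.05. Of the 13 member probe sets, 0 passed in either direction, against 0.0126% of the 15838 tested over the whole array (2 probe sets, 1 higher and 1 lower at 0.00631% each), and each member had an adjusted p of 1.00 in limma. At an unadjusted p under 0.05 there were 0 of 13 members, where the array as a whole had 3.03%. The members' median null minus control difference was 0.05 on the log2 scale, with 9 probe sets higher and 4 lower, beside a median of −0.01 over all probe sets tested. Without the null female the members' median was −0.0072. Taken within the sexes, the members' median was 0.05 between the males and 0.03 between the females, and 8 of the 13 (61.5%) had the same sign in both sexes, as 48.2% of all probe sets tested had.

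The intervals give the sizes that these 4 arrays can speak to. For 11 of the 13 probe sets (84.6%) the 95% interval of the difference lay inside a 2-fold change in either direction, as it did for 79.3% of all probe sets tested, and the 2 exceptions were both of Cldn2. On the normalized scale the null and control animals did not overlap for 2 of 13 members, both higher in null animals, where 29.8% of all probe sets did not overlap (13.5% with null higher). Those 2 were Tjp3 and 1 of the Cldn3 probe sets, and for both the deposited intensities did overlap. In bulk tissue, fewer epithelial cells and less RNA per cell cannot be told apart, so each value is a level in the mixed tissue.

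**Figure D1:**
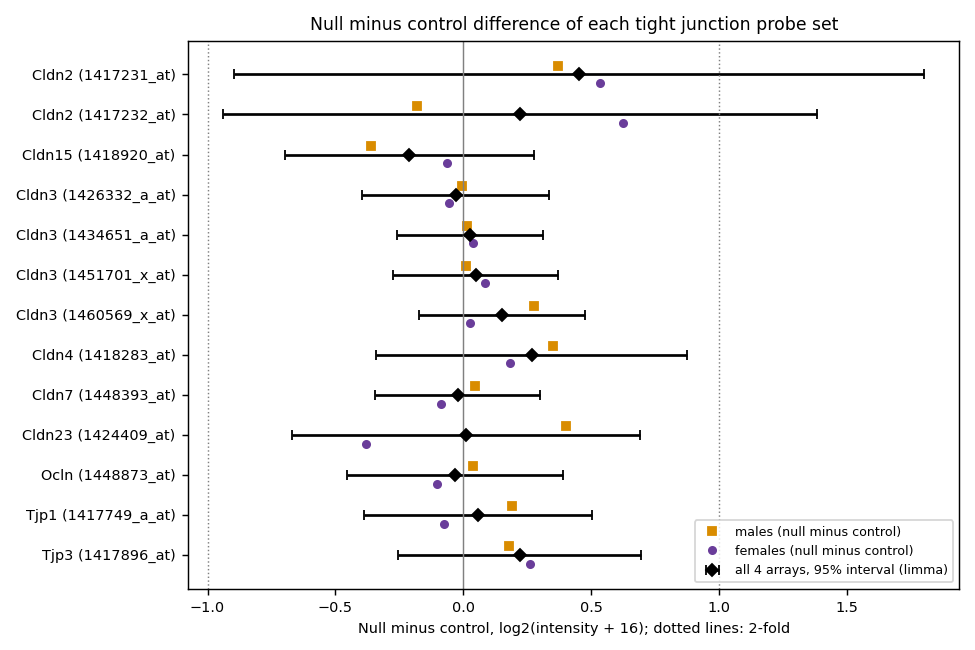
Null minus control difference on the scale of log2(intensity + 16) for each of the 13 tight junction probe sets (rows). Diamonds are the difference over all 4 arrays with its 95% limma interval, squares are the males alone and circles the females alone. All intervals include 0, and only those of the 2 Cldn2 probe sets reach past the dotted line that marks a 2-fold increase.

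Cldn2 encodes a claudin that forms a pore for cations and water and is typical of crypts. Its brighter probe set, 1417231_at, read 175 in the null male and 545 in the null female, against 143 in the control male and 389 in the control female. The 2 females were high and the 2 males low whatever the group, so the groups overlapped widely. The difference was 0.45 with an SE of 0.56 and a 95% interval from −0.90 to 1.80, which spans 0.537-fold to 3.49-fold. The means were 8.42 ± 1.03 in null and 7.97 ± 0.91 in control animals (SD, n = 2 each, log2 scale), and the SD within each group was thus larger than the difference. The null animal was the higher one in both sexes, by 0.37 between the males and 0.54 between the females. Over the groups the difference turned to −0.28 without the null female and to −0.19 without the control male. Sex was not in these fits and the groups then differed in it, so these signs cannot be told apart from the order of the sexes.

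The second Cldn2 probe set, 1417232_at, was dimmer but ordered the sexes the same way. It read 31.2 in the null male and 134 in the null female, against 43.3 in the control male and 77.1 in the control female. The value of the null male is the 1 member value inside the dim range, and it is not shown to lie above background. The null female was higher than the control female by 0.62, and no direction is read between the males. The fitted difference, which includes the dim value, was 0.22 (SE 0.49, 95% interval −0.94 to 1.38).

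Cldn2 was also the member that varied most between animals. The brighter probe set spanned 1.83 on the log2 scale over the 4 arrays, which is more than 98.5% of all probe sets tested, and the dimmer one 1.45. Each group held both sexes equally, so sex as a block cannot change the difference of the brighter probe set, 0.45, but only its SE. The SE of that difference was then 0.19 (95% interval 0.04 to 0.87), with an unadjusted p of 0.0346 and an adjusted p of 0.904 in limma. In that fit 0 of 13 members passed, beside 0.183% of all probe sets tested (29 probe sets).

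The sexes were also compared directly, a comparison chosen after the Cldn2 values were seen, so its p values describe these 4 animals and support nothing further. With group and sex both in the limma model, the brighter Cldn2 probe set was higher in females than in males by 1.38 on the log2 scale, or 2.60-fold (SE 0.19, 95% interval 0.96 to 1.79, adjusted p = 0.00927). It was the 1 member probe set of 13 past the threshold, beside 0.53% of all probe sets tested, and the 2 Cldn2 probe sets alone had an unadjusted p under 0.05, beside 8.71% of all. The dimmer probe set gave 1.04 (SE 0.29, adjusted p = 0.247 in limma). With both terms fitted, fewer residual degrees of freedom were left than in the main fit, and each SE leaned more on the prior. The call did not hold without a trend in the prior (adjusted p = 0.33 in limma) or with group left out of the model (adjusted p = 0.18 in limma). Sex cannot be told apart from whatever the consecutive animal numbers stand for, nor, in the controls, from Cre and the minus allele.

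Some crypt markers, but not all, were ordered like Cldn2. The stem cell gene Lgr5 read 49.2 in the null male and 86.0 in the null female, against 48.5 in the control male and 78.7 in the control female. The proliferation gene Mki67 read 107 in the null male and 176 in the null female, against 131 in the control male and 225 in the control female. Both genes were thus higher in the 2 females. Summed over the brightest probe set of 6 crypt genes, intensity was 584 in the null male and 749.7 in the null female, beside 606 in the control male and 802 in the control female. On the normalized scale, of 10 crypt probe sets tested, 4 were higher in both females than in both males and 3 were lower in both. Over all probe sets tested, 22.3% were higher in both females and 17.9% lower. The part of crypt cells in the Cldn2 values was not tested. No crypt probe set tested was at 0, and 3 further ones were too dim to be tested. Some tested ones held values inside the dim range. Cd44 on 1452483_a_at, higher in both females, read 11.4 in the null male and 18.2 in the control male. The brighter probe set of Axin2, a Wnt target, had the reverse order, with both females below both males. It read 97.6 and 70.7 in the null male and female, against 80.7 and 79.4 in the control male and female. Both tested Ascl2 probe sets also had the reverse order on the normalized scale, with female minus male differences of −0.35 and −0.22. The dimmer of them lay inside the dim range in all 4 animals.

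**Figure D2:**
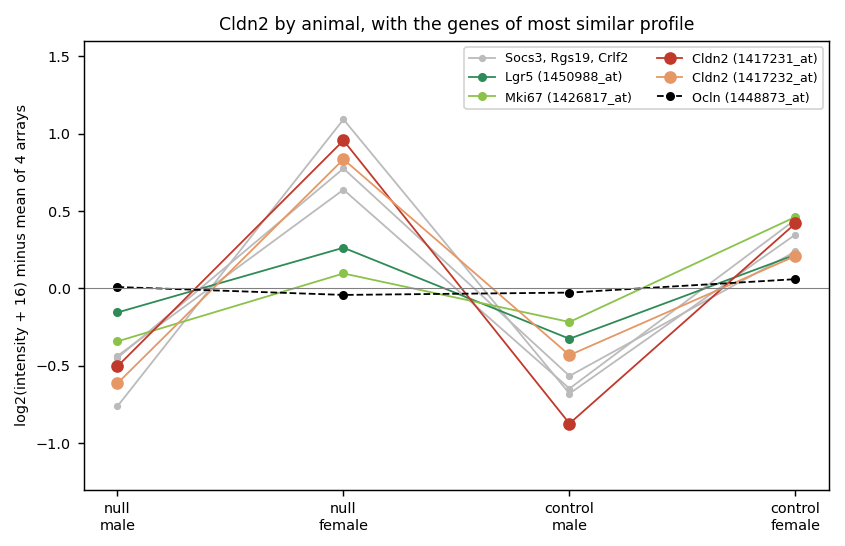
Log2(intensity + 16) of each probe set minus its mean over the 4 arrays, for the null male and female and the control male and female. Lines only join values of 1 probe set. Crypt probe sets with the reverse order of the sexes are not drawn. Both Cldn2 probe sets lie above their mean in the 2 females and below it in the 2 males, as do Socs3, Rgs19, Crlf2, Lgr5 and Mki67, while Ocln is nearly flat.

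By the distance between profiles centred on their mean over the 4 arrays, the 3 genes most like Cldn2 among 9545 were Socs3, Rgs19 and Crlf2. Their root mean square distances from Cldn2 were 0.18, 0.20 and 0.20 on the log2 scale. Socs3, a cytokine signalling inhibitor, read 22.3 in the null male and 146 in the null female, against 29.4 in the control male and 77.2 in the control female. Its values in the 2 males lay inside the dim range, as did those of Rgs19, at 22.5 in the null male and 21.4 in the control male. With 4 arrays such likeness rests on the 2 females being above the 2 males. Among the members themselves, each taken by its brightest probe set, the closest pair was Cldn3 and Ocln, at 0.06, and the most distant pair was Cldn2 and Cldn23, at 0.91.

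Cldn15, the other pore-forming claudin of the set, conducts sodium across the small intestine. It read 465 in the null male and 436 in the null female, against 616 in the control male and 462 in the control female. The male control stood alone at the top, while the other 3 animals lay close together and overlapped. The difference was −0.21 (SE 0.20, 95% interval −0.70 to 0.28), the lowest of the members, with −0.36 between the males and −0.06 between the females. Without the male control it was 0.01, so the size of the Cldn15 difference rested on that animal.

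Among the claudins that seal the gap between cells, Cldn3 gave the steadiest values. Probe set 1434651_a_at read 1485 in the null male and 1430.1 in the null female, against 1481 in the control male and 1407 in the control female. All 4 animals lay within 0.08 on the log2 scale and the groups overlapped, and only 0.594% of probe sets tested had a narrower span. The difference was 0.03 (SE 0.12), and its 95% interval, −0.26 to 0.31, ran from 0.835-fold to 1.24-fold.

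The other 3 Cldn3 probe sets gave differences of −0.03, 0.05 and 0.15. The last of these, 1460569_x_at, read 1470.1 in the null male and 1231 in the null female, against 1224 in the control male and 1249.8 in the control female, with the null male standing apart and the other 3 together. It differed by 0.28 between the males and 0.03 between the females. The suffix x marks a probe set whose probes may also match other transcripts. Over the 4 Cldn3 probe sets, the interval limits ran from 0.761-fold to 1.39-fold.

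Cldn7, a claudin of the lateral membrane that binds Epcam, read 1837 in the null male and 1911 in the null female, against 1821 in the control male and 2155 in the control female. The female control was the highest and the groups overlapped. The difference was −0.02 (SE 0.14, 95% interval −0.34 to 0.30), with 0.05 between the males and −0.09 between the females.

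Cldn4, a sealing claudin better known from colon and other epithelia, read 156 in the null male and 127 in the null female, against 131 in the control male and 105 in the control female. In each sex the null animal was the higher, but the null female lay below the control male, so the groups overlapped. The difference was 0.27 (SE 0.25, 95% interval −0.34 to 0.87), being 0.35 between the males and 0.18 between the females.

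Cldn23, a less studied claudin that differentiated gut epithelium expresses, read 139.8 in the null male and 93.0 in the null female, against 113 in the control male and 120.3 in the control female. The 2 null animals lay on either side of both controls. The difference over the 4 arrays was 0.01 (SE 0.29, 95% interval −0.67 to 0.69), made of 0.40 between the males and −0.38 between the females, so the mean of null animals near that of controls hides the widest disagreement between the null animals among the members other than Cldn2.

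**Figure D3:**
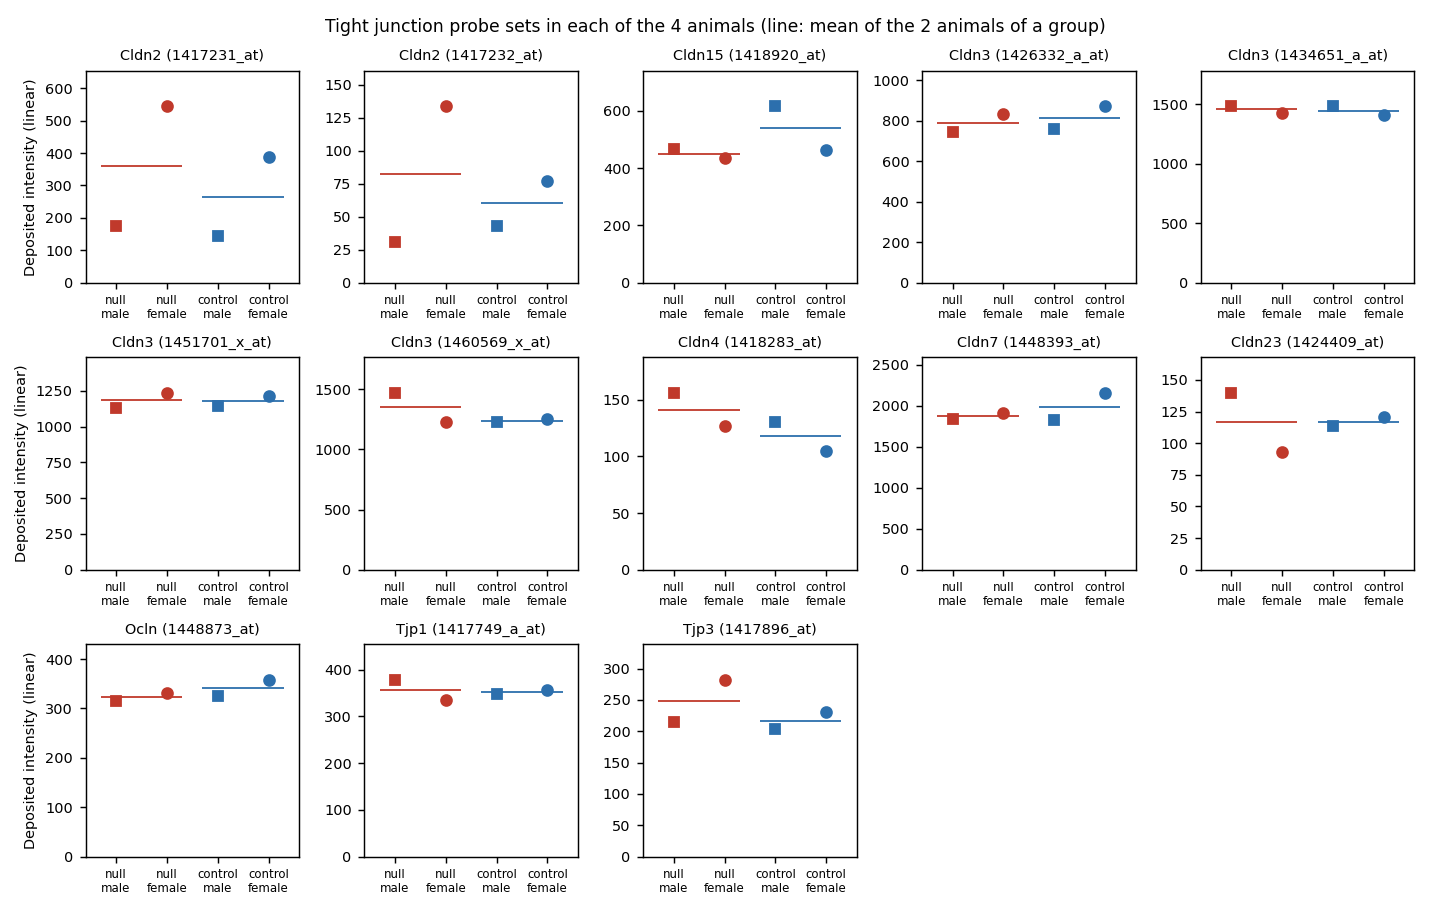
Deposited intensity (linear, each axis from 0) of the 13 tight junction probe sets in the null animals (red) and the control animals (blue). Squares are males, circles females and lines the mean of the 2 animals of a group. Both Cldn2 probe sets separate females from males, the male control is high for Cldn15, and Cldn3, Cldn7 and Ocln are close to level.

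Occludin is a regulator of the junction that is not needed for its assembly. Ocln read 316 in the null male and 331 in the null female, against 325 in the control male and 358 in the control female. The animals were close together and the groups overlapped, with a span of 0.10 on the log2 scale. The difference was −0.03 (SE 0.18, 95% interval −0.45 to 0.39), with 0.04 between the males and −0.10 between the females.

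Tjp1, which encodes ZO-1, the scaffold on which claudin strands form, read 379 in the null male and 335 in the null female, against 347 in the control male and 357 in the control female. The null animals lay on either side of the controls. The difference was 0.06 (SE 0.19, 95% interval −0.39 to 0.50), being 0.19 between the males and −0.08 between the females.

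Tjp3, which encodes the epithelial scaffold ZO-3, is the member with the HNF4-like letters in the printed window. It read 214 in the null male and 282 in the null female, against 203 in the control male and 231 in the control female. The deposited intensities overlapped, with the null male below the control female, while after normalization both null animals, at 7.95 and 8.17, lay above both controls, at 7.77 and 7.91. The difference was 0.22 (SE 0.20, 95% interval −0.26 to 0.69), and it was positive in both sexes, at 0.18 between the males and 0.26 between the females.

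The wider tight junction machinery was taken from 4 lists of 73 further genes, of which 55 had a probe set of their own. Of 77 probe sets tested, 0 passed the threshold, against the 0.0126% over the whole array, and 40 were higher and 37 lower in null animals with a median of 0.03. That median turned to −0.07 without the null female, −0.04 without the control male and −0.02 without normalization. A further 25 probe sets were among the dimmest 30% and were not tested. Summed over the brightest probe set of each gene, the 9 members gave 5167 in the null male and 5489.7 in the null female, against 5182 in the control male and 5584 in the control female, so the groups overlapped.

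Among 9 tested probe sets of other claudins, 6 were higher and 3 lower, with a median of 0.18. Over all 16 probe sets of the list, dim ones included, it was 0.05, and without the null male it was −0.04 over the 7 probe sets then tested. Cldn1, a barrier claudin, had the smallest p of this list, and its probe set 1437932_a_at read 47.4 in the null male and 39.3 in the null female, against 25.2 in the control male and 11.6 in the control female. The controls lay inside the dim range, so no size is given for the difference (unadjusted p = 0.0313, adjusted p = 1.00 in limma). The other tested Cldn1 probe set gave 0.23. Cldn5, the claudin of endothelium, read 28.3 and 25.0 in null animals, inside the dim range, against 45.6 and 43.0 in controls (adjusted p = 1.00 in limma), and no size is given here either. On the same arrays 7 of 9 endothelial marker probe sets were higher in null animals, with a median of 0.17 and sums of 399 and 507 against 391 and 348. Several of these were of 1 gene, Egfl7, which also gave the median. By the brightest probe set of each gene, 4 were higher and 2 lower, and 3 of the 9 probe sets had the same sign in both sexes. No endothelial probe set tested was at 0, and 3 others were too dim to be tested. Pecam1 lay inside the dim range in every animal but the null female, and Tek in the null male and the control female. The part of endothelium in the Cldn5 values was not tested.

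Other membrane proteins of the junction had 10 probe sets higher and 5 lower with a median of 0.09. Lsr, the angulin that recruits tricellulin to tricellular corners, read 406 in the null male and 411 in the null female, against 296 in the control male and 332 in the control female. Both null animals lay above both controls, with a log2 difference of 0.41 (SE 0.17, adjusted p = 1.00 in limma). Marveld3, a relative of occludin, lay the other way with 59.6 and 55.9 in null against 103 and 80.6 in control animals, a difference of −0.50 (SE 0.24, adjusted p = 1.00). Tricellulin itself, Marveld2, differed by −0.13 (SE 0.31), and the 2 probe sets of the junctional adhesion molecule F11r by −0.05 and 0.10.

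Plaque, scaffold and polarity proteins had 12 probe sets higher and 14 lower with a median of −0.04, and traffic and actomyosin regulators 12 higher and 15 lower with a median of −0.04. Both medians turned to 0.07 without the null male, and that of the regulators also to 0.03 without the control female. The 2 smallest p values of the plaque list with the same sign in both sexes belonged to Ybx3, which encodes the ZO-1-associated factor ZONAB, at −0.46 (SE 0.23), and to the polarity scaffold Patj, at −0.36 (SE 0.22). The other tested Ybx3 probe set gave −0.08 and the other Patj probe set −0.16. In the regulator list they were Actn1, an actin crosslinker, at 0.44 (SE 0.22), and the vesicle GTPase Rab8a at −0.32 (SE 0.18). Each of these had an adjusted p of 1.00 in limma, and the other Actn1 probe sets gave −0.23 and 0.08.

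Markers of the epithelium that carries these junctions were measured on the same arrays. Of 11 epithelial probe sets, 9 were lower and 2 higher in null animals, with a median of −0.14 and none past the threshold. Their median was 0.0035 between the males and −0.30 between the females, and 5 of 11 had the same sign in both sexes. The sum over 8 epithelial genes was 15797 in the null male and 12971 in the null female, beside 16334 in the control male and 17559 in the control female. Villus enterocyte markers had 9 of 11 probe sets lower with a median of −0.10, and their sums were 33299 and 31447 in null animals and 34779.9 and 34659 in controls. By the brightest probe set of each gene, 5 were lower and 1 higher. The median was that of an Apoa1 probe set, and Apoa1 held the highest intensity of every array. Each Apoa1 probe set had the same normalized value in both controls (SD 0), so its sign reflects only the order among the brightest probe sets. All 10 smooth muscle probe sets were higher in null animals by group mean, with a median of 0.21 and sums of 2295 and 3041 against 2291 and 2360.0. Their median was 0.16 between the males and 0.63 between the females, and only 3 of 10 had the same sign in both sexes. Actg2, Cnn1, Tagln and the tested Myh11 probe set were lower in the null male than in the control male. T cell markers had 5 of 6 probe sets lower with a median of −0.39 and sums of 798 and 616 against 1019.6 and 1109.9. No probe set tested on these lists was at 0. Sums are given for the male and then the female of a group. The members' median of 0.05 lay between those of the epithelial and the smooth muscle markers, and the part of tissue make-up in it was not tested.

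**Figure D4:**
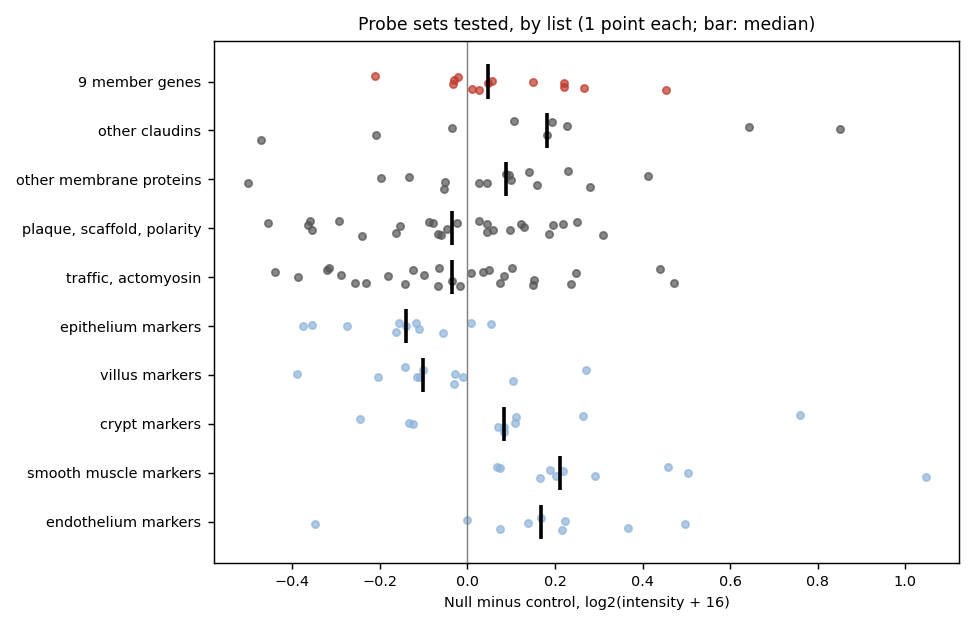
Null minus control difference on the scale of log2(intensity + 16) of every tested probe set (1 point each, vertical scatter only for legibility) for the 9 member genes, 4 further tight junction lists and 5 marker lists, with bars at the medians. The members lie between −0.21 and 0.45 with a median of 0.05, and the medians of the 4 further junction lists lie between −0.04 and 0.18.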

How the data were processed

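Extraction used a Qiagen RNeasy kit, per the labels. The authors deposited a linear intensity for every probe set and array, of which 1.42% to 2.46% per array were below 0. How probes were summarised, background-corrected and scaled is not given in the sources used here. After removal of 64 control probe sets, intensities were quantile normalized, floored at 0 and converted to log2(intensity + 16). The 30% of probe sets with the lowest mean were not tested. limma 3.58.1 in R 4.3.3 (lmFit, eBayes with an intensity trend) compared 2 null with 2 control arrays, two-sided, with Benjamini-Hochberg adjustment over 15838 probe sets. In this main fit the residual degrees of freedom were 2, the prior added 4.65, and the few arrays limit the precision. Fits with sex in the model had fewer residual degrees of freedom and leaned more on the prior. The animals are separate samples by the labels. The p-values rest on the spread between them and on the prior, which is drawn from the spread of all probe sets tested. The main fit was also run on simulated data, with known differences added to bright probe sets, no effect of sex and no normalization step. Those data do not cover differences as small as the members' or a spread by sex such as that of Cldn2.

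Probe sets were named from the platform annotation, 20380 of them with 1 gene, 691 with several and 1555 with none, and list symbols were matched through a GRCm38.p6 gene table. The members and lists were chosen with earlier results of these data known, so lists are described by counts and medians. All members were named. From the other junction lists, probe sets past the threshold, the 2 smallest p per list with the same sign in both sexes, and the partners F11r and Marveld2 were named. Another partner, Cgn, was not analysed here. Alternatives were the normalization, pseudocount, filter, prior trend, sex as a block and leaving out each animal.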

Additional observations from a re-analysis of the deposited data

Results flagged for a closer look

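For 5 of the 13 member probe sets the null minus control difference pointed in opposite directions in the male and the female pair. The other 8 (61.5%) had the same sign in both pairs, where 48.2% of all probe sets tested did, so opposite signs were not more frequent among the members. With 1 animal per group and sex this difference between the pairs was not tested. The control male had no Cre and the control female had no minus allele. For every probe set named here, sex thus cannot be told apart from the genotype of the control. The female pair's difference minus the male pair's was 0.81 for the dimmer Cldn2 probe set, −0.78 for Cldn23, −0.27 for Tjp1, −0.14 for Ocln and −0.13 for Cldn7, all on the log2 scale. For the Cldn2 probe set the null male lay inside the dim range, so its direction between the males is not shown. The same held for the brighter F11r probe set at −0.27 and for Marveld2 at 1.03. Of the 4 Hnf4a probe sets, 3 did so too, at −0.75, −0.78 and −0.30, where the null animal was higher in the male pair and lower in the female pair.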

How the results depend on the processing

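No member probe set passed the threshold under any of the 12 alternatives, and of the 156 member values they gave, 139 kept their direction and 17 changed sign. Changing the filter or the prior trend, or adding sex as a block in this balanced design, leaves each difference unchanged by construction. The 17 changes of sign were thus all under the other alternatives. Tjp3, Cldn4 and Cldn3 on 1460569_x_at, all positive, kept their direction throughout. The members' median ranged from −0.0072 without the null female to 0.0902 without the control female, and that of the other tight junction genes from −0.0684 without the null female to 0.0512 without the null male. The number of probe sets called over the whole array was 1 without a trend in the prior, 29 with sex as a block and 0 to 35 when 1 animal was left out (0 without the control male, with 205 at an unadjusted p under 0.05, and 35 without the null male). Without normalization Cldn23 was −0.0281, and with arrays scaled to a common median Cldn3 on 1426332_a_at was 0.0089. Leaving out 1 animal at a time gave −0.426 to 0.0082 for Cldn15, −0.283 to 1.16 and −0.504 to 0.942 for the 2 Cldn2 probe sets, −0.350 to 0.373 for Cldn23, −0.113 to 0.0647, −0.0073 to 0.0625 and −0.0362 to 0.124 for the 3 other Cldn3 probe sets, −0.161 to 0.114 for Cldn7, −0.0749 to 0.0111 for Ocln and −0.0758 to 0.194 for Tjp1. For Cldn2 the sign turned on both probe sets without the null female and without the control male. In these fits the group left with 1 animal is assumed to vary like the other. Sex is not in them, so the groups then differ in sex. The turned Cldn2 signs cannot be told apart from the order of the sexes. The groups share no replicate number, and the fit with sex as a block is the paired one, setting the male against the male and the female against the female. With 2 animals per group and no detection calls, small differences and dim probe sets cannot be resolved.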

Other observations

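In the comparison of the sexes, the members other than Cldn2 had female minus male differences from −0.39 for Cldn4 to 0.20 for Cldn7 on the log2 scale, none past the threshold. Over the 13 member probe sets, 5 were higher in both females than in both males and 4 lower in both, where 22.3% and 17.9% of all probe sets tested were. Among the crypt markers, Lgr5 gave 0.48 (adjusted p = 0.681 in limma) and Mki67 0.56 (adjusted p = 0.482 in limma). Both had the females above the males and neither was past the threshold. In the other direction, the tested Ascl2 probe sets gave −0.35 and −0.22 and the brighter Axin2 probe set −0.32, also not past the threshold.

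For the brighter Cldn2 probe set the adjusted p in limma ranged from 0.000315 without normalization to 0.0122 with the dimmest 50% left out among the settings that kept the call with all 4 animals. With group left out and 1 animal removed at a time, the difference ran from 1.12 to 1.64. The adjusted p in limma was then 0.41 without the null male, 0.419 without the null female, 0.195 without the control male and 0.0325 without the control female. Cldn2 lies on the X chromosome, and any part of this in the difference between the sexes was not tested.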
